A study of Mus musculus with 9 samples.

Results

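Hedgehog pathway genes were followed across the otic vesicle (OV), the tissue around it and the rest of the mouse embryo. The core genes were chosen by symbol: *Shh*, *Ptch1*, *Smo*, *Gli1*, *Gli2*, *Gli3*, *Hhip* and *Sufu*, and every array probe carrying one of these symbols was taken. Of the 8 symbols, 6 were found, on 10 of 25697 probes, and these are 6 of the 18120 gene symbols on the array. *Shh* had 2 probes, *Smo* 3, *Sufu* 2, and *Ptch1*, *Gli3* and *Hhip* 1 each. *Gli1* and *Gli2*, a target and an activating transcription factor of the pathway, were not analysed here.

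RNA came from CD-1 mouse embryos at E10.5, midway through gestation, without any transgene or treatment, and was hybridised to a 1-colour Illumina whole-genome expression beadchip. The 3 groups were the OV, dissected and pooled; periotic tissue, which is what lay around the vesicle and takes in mesenchyme and part of the hindbrain; and embryo-minus-otic, the whole embryo after the otic region had been cut away. Each group had 3 arrays of pooled tissue. The methods speak of separate litters, but the labels do not tie a replicate number to a litter, so the p-values below measure the spread between these pools.

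In Hedgehog signalling a secreted ligand binds the receptor Ptch1, which otherwise holds the transducer Smo inactive. Once Smo is released, it acts through the primary cilium and the regulator Sufu to change how the Gli transcription factors are processed. *Ptch1*, *Hhip* and *Gli1* are themselves induced by the signal and feed back on it. In the embryo *Shh* is made by the notochord and the floor plate of the neural tube, by the gut and by the limb bud, and Shh from the ventral midline is needed for ventral patterning of the inner ear.

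Levels are given as normalized log2 intensity, that is, the log2 of the deposited probe signal after quantile normalization over the 9 arrays. One unit is a doubling, and different probes cannot be ranked against each other on this scale. A deposited detection p under 0.01 counted as above background for that probe and array. Between 11283 and 12160 probes passed this on each array, or 43.9% to 47.3%. Differences were tested with limma over all 25697 probes, with Benjamini-Hochberg adjustment of the p-values to give *q*. A difference was called at *q* under 0.05. Where a probe was above background on no array of the lower group, the fold Δ is given as a lower bound, set against the dimmest signal that was above background on those arrays.

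The tissue labels were compared with marker lists. *Oc90*, *Fbxo2*, *Lmx1a* and *Cldn6* of the OV list are among the paper's own top OV probes, ranked from these same arrays. Their calls are therefore no independent check of the labels. Of 12 probes for OV epithelium (among them *Oc90* and *Fbxo2*), 9 were called higher in OV in both comparisons, and their summed normalized intensity was 9187 to 10060 in OV, 935 to 1011 in periotic tissue and 1110 to 1487 in embryo-minus-otic. Of 9 hindbrain and neural tube probes, 7 were called lower in OV than in periotic tissue, with summed intensities of 1137 to 1489 in OV, 7030 to 8124 in periotic tissue and 3049 to 3991 in embryo-minus-otic. Of 10 mesenchyme probes, 2 were called higher in periotic tissue than in OV, and the summed intensity of 1409 to 1602 in periotic tissue overlapped the 1299 to 1479 in OV, while embryo-minus-otic had 3238 to 3766. Red cell probes were called lower in OV for 7 of 7 in both comparisons, at 16368 to 40484 against 64073 to 74556 in periotic tissue and 84714 to 91673 in embryo-minus-otic.

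Among the core genes, *Shh* was the gene that separated OV from the other tissues. Both of its probes were called lower in OV than in embryo-minus-otic and lower than in periotic tissue, and no other core probe was called in any of the 3 comparisons. The count was 2 of 10 probes lower and 0 higher against embryo-minus-otic, where 5.51% of all probes were called lower and 5.89% higher, or 11.4% in either direction. It was again 2 of 10 lower and 0 higher against periotic tissue, where 5.15% of all probes were lower and 5.07% higher, or 10.2% in either direction. Between periotic tissue and embryo-minus-otic 0 core probes were called in either direction by limma and 0 had an unadjusted p under 0.05, while 2.86% of all probes were called higher and 2.95% lower, or 5.81% in either direction. At limma's unadjusted p under 0.05, 4 core probes were lower in OV in each OV comparison and 0 were higher. These were both *Shh* probes, *Hhip* and a *Sufu* probe, and the *Hhip* and *Sufu* differences did not pass at *q* under 0.05. No share of all probes is given at the unadjusted threshold, so the counts at it have no baseline and show no lowering across the core genes. Called lower in OV in both comparisons were 2 of the 10 core probes and 2.65% of all probes.

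*Shh* encodes the ligand. On probe 1 its level was 5.998, 5.81 and 5.84 in the OV arrays, 8.50, 8.21 and 7.80 in the periotic arrays and 8.22, 8.16 and 8.39 in the embryo-minus-otic arrays. The OV arrays all lay below the 6 non-otic arrays, with a wide gap and no overlap, and the ranges of the non-otic groups overlapped. In the deposited signal, before normalization, the same probe read 52.5 to 66.4 in OV and 247 to 335 in the non-otic arrays. It was above background on all 6 non-otic arrays and on 0 of 3 OV arrays. Mean levels were 5.88 ± 0.10 (SD, n = 3) in OV, 8.17 ± 0.35 (SD, n = 3) in periotic tissue and 8.26 ± 0.12 (SD, n = 3) in embryo-minus-otic.

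The fitted OV difference on probe 1 was -2.38 (SE 0.14) against embryo-minus-otic, with limma's *q* = 8.68e-09, and *Shh* was there at least 4.16-fold lower in OV. Against periotic tissue the difference was -2.29 (SE 0.14), with limma's *q* = 1.14e-08, and *Shh* was at least 3.92-fold lower in OV. Levels in periotic tissue and embryo-minus-otic differed by -0.087, with a 95% interval of -0.38 to 0.21 and limma's *q* = 0.859, which is within the spread of the arrays.

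The second *Shh* probe, placed on chromosome 5 by the array annotation, gave the same direction. Its levels were 6.02, 5.77 and 6.0002 in OV, 6.60, 6.77 and 6.66 in the periotic arrays and 6.64, 6.88 and 6.59 in embryo-minus-otic. Again every OV array lay below every non-otic array, and the non-otic groups overlapped. The OV difference was -0.77 (SE 0.10) against embryo-minus-otic (limma's *q* = 6.82e-05, at least 1.42-fold lower) and -0.75 against periotic tissue (limma's *q* = 8.99e-05, at least 1.39-fold lower). Over the 9 arrays, which include the group differences, the levels on both probes had a Pearson's r of 0.939.

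The size of the *Shh* difference depended on the background correction. With normexp correction from the detection p-values (limma's neqc) the OV difference became -3.58 and -3.47 on probe 1 and -1.44 and -1.40 on probe 2, against embryo-minus-otic and periotic tissue in that order. The call held under all 17 alternatives, over which the probe 1 difference ran from -3.58 to -2.23 against embryo-minus-otic and from -3.47 to -2.13 against periotic tissue. In these bulk samples fewer cells making *Shh* and less *Shh* RNA per cell cannot be told apart.

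**Figure D1:**
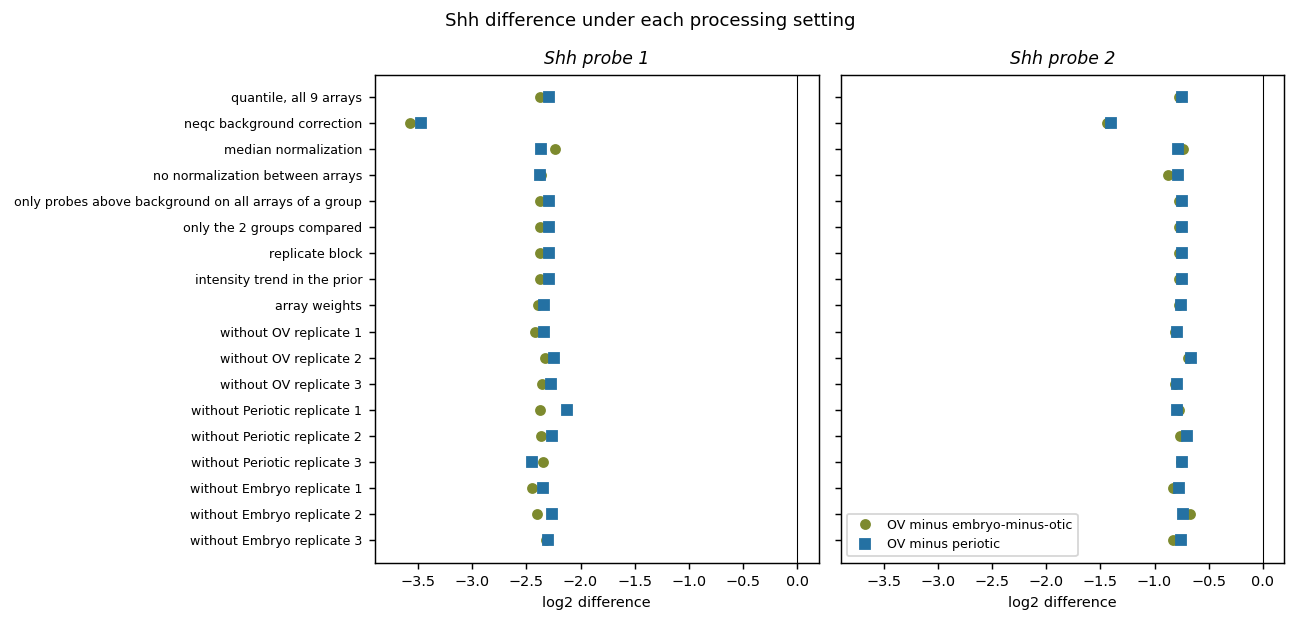
OV minus non-otic differences of the *Shh* probes (log2, x axis) under the reported setting and each alternative (y axis), with circles for OV minus embryo-minus-otic and squares for OV minus periotic tissue. Every point lies left of 0, and only the neqc background correction moves the points far from the rest, to -3.58 and -3.47 on probe 1.

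Markers of the tissues known to make *Shh* were measured beside it. For floor plate and notochord, 7 probes summed to 400 to 420 in OV, 546 to 582 in periotic tissue and 548 to 584 in embryo-minus-otic, and 3 were called lower in OV than in embryo-minus-otic and 2 lower than in periotic tissue. Over all probes 5.51% and 5.15% were called lower in OV in these comparisons. Among the 7 probes, those of *Ntn1* and *Sim2* were above background on no array. For gut endoderm, 7 probes summed to 410 to 445 in OV, 528 to 578 in periotic tissue and 914 to 1070 in embryo-minus-otic. Of these, 6 (85.7%) were called lower in OV than in embryo-minus-otic and 3 (42.9%) lower than in periotic tissue, and 5 were above background on no OV array. For the limb bud, 9 probes summed to 552 to 590 in OV, 538 to 552 in periotic tissue and 750 to 892 in embryo-minus-otic. Of these, 2 (22.2%) were called lower in OV than in embryo-minus-otic. Against periotic tissue 0 were lower and 1 (11.1%) was higher in OV, beside 5.07% of all probes called higher. Above background on no array of the group were 7 of the 9 in OV, 8 in periotic tissue and 6 in embryo-minus-otic. The part of these tissues in the *Shh* difference was not tested.

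*Ptch1*, the receptor that is also a target of the signal, was above background on 0 of 9 arrays. Its levels were 6.01, 5.74 and 5.82 in OV, 5.91, 5.92 and 6.03 in the periotic arrays and 5.75, 6.06 and 5.85 in embryo-minus-otic. The 3 groups overlapped, and since the probe was not above background in any of them no fold Δ is given. A probe that was above background nowhere cannot show whether *Ptch1* RNA was low or the probe reads it poorly, so no limit on *Ptch1* is drawn.

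*Hhip*, a membrane protein that binds and sequesters the ligand and is induced by it, was above background on 0 of 3 OV arrays, 2 of 3 periotic arrays and 1 of 3 embryo-minus-otic arrays. Its levels were 5.96, 6.03 and 5.98 in OV, 6.31, 6.09 and 6.30 in the periotic arrays and 6.17, 6.31 and 6.12 in embryo-minus-otic. Every OV array lay below all 6 non-otic arrays, by a narrow margin. The difference did not pass the test against embryo-minus-otic (-0.21, 95% interval -0.40 to -0.013, limma's unadjusted p = 0.0383 and *q* = 0.196) or against periotic tissue (-0.24, 95% interval -0.44 to -0.046, limma's unadjusted p = 0.0188 and *q* = 0.134). Together with both *Shh* probes, 3 of 10 core probes had all OV arrays below all non-otic arrays, which was so for 5.6% of all probes.

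*Smo*, the transducer that Ptch1 holds inactive, was the one core gene above background on all 9 arrays, on each of its 3 probes. Among all probes 38% were above background throughout. On probe 1, placed on chromosome 6, the levels were 8.98, 8.86 and 8.94 in OV, 8.90, 8.72 and 8.90 in the periotic arrays and 8.90, 8.54 and 8.76 in embryo-minus-otic. The 3 groups overlapped on this probe. The OV difference was 0.19 against embryo-minus-otic (95% interval -0.025 to 0.41, limma's *q* = 0.315) and 0.085 against periotic tissue (95% interval -0.13 to 0.30, limma's *q* = 0.770).

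The other *Smo* probes showed overlapping groups as well. Probe 2 had mean levels of 7.75 ± 0.22 in OV, 7.64 ± 0.19 in periotic tissue and 7.71 ± 0.067 in embryo-minus-otic (SD, n = 3 each). Probe 3 had 7.24 ± 0.25, 7.25 ± 0.12 and 7.14 ± 0.084 in the same order (SD, n = 3 each). The intervals of the OV differences on probe 2, -0.21 to 0.30 against embryo-minus-otic and -0.14 to 0.37 against periotic tissue, did not reach the size of the *Shh* difference on probe 1. The 3 probes did not follow each other from array to array, with Pearson's r of -0.17, 0.16 and 0.29 over the 9 arrays.

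*Sufu*, which binds Gli proteins and restrains them, gave different readings on its probes. Probe 1 read 6.25, 6.06 and 5.90 in OV, 6.33, 6.29 and 6.47 in the periotic arrays and 6.58, 6.30 and 6.16 in embryo-minus-otic, and was above background on 1, 3 and 2 arrays in that order. OV lay below periotic tissue without overlap and overlapped embryo-minus-otic. The differences of -0.28 against embryo-minus-otic (limma's unadjusted p = 0.0291, *q* = 0.162) and -0.29 against periotic tissue (limma's unadjusted p = 0.0244, *q* = 0.161) did not pass the test. Probe 2, annotated to transcript variant 1 and to chromosome 19, was above background on 0 of 9 arrays, and its Pearson's r with probe 1 was -0.50.

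*Gli3*, the transcription factor that acts mainly as the repressor of the pathway, was close to the background throughout. Its levels were 6.13, 5.90 and 6.24 in OV, 6.20, 6.03 and 6.33 in the periotic arrays and 6.30, 6.33 and 6.24 in embryo-minus-otic. It was above background on 0 of 3 OV arrays, 1 of 3 periotic arrays and 3 of 3 embryo-minus-otic arrays. The OV arrays lay below the embryo-minus-otic arrays by a very small margin (6.2356 against 6.2372 at the nearest), and periotic tissue overlapped both. The OV difference was -0.20 against embryo-minus-otic (95% interval -0.42 to 0.022, limma's *q* = 0.301) and -0.096 against periotic tissue (limma's *q* = 0.739).

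**Figure D2:**
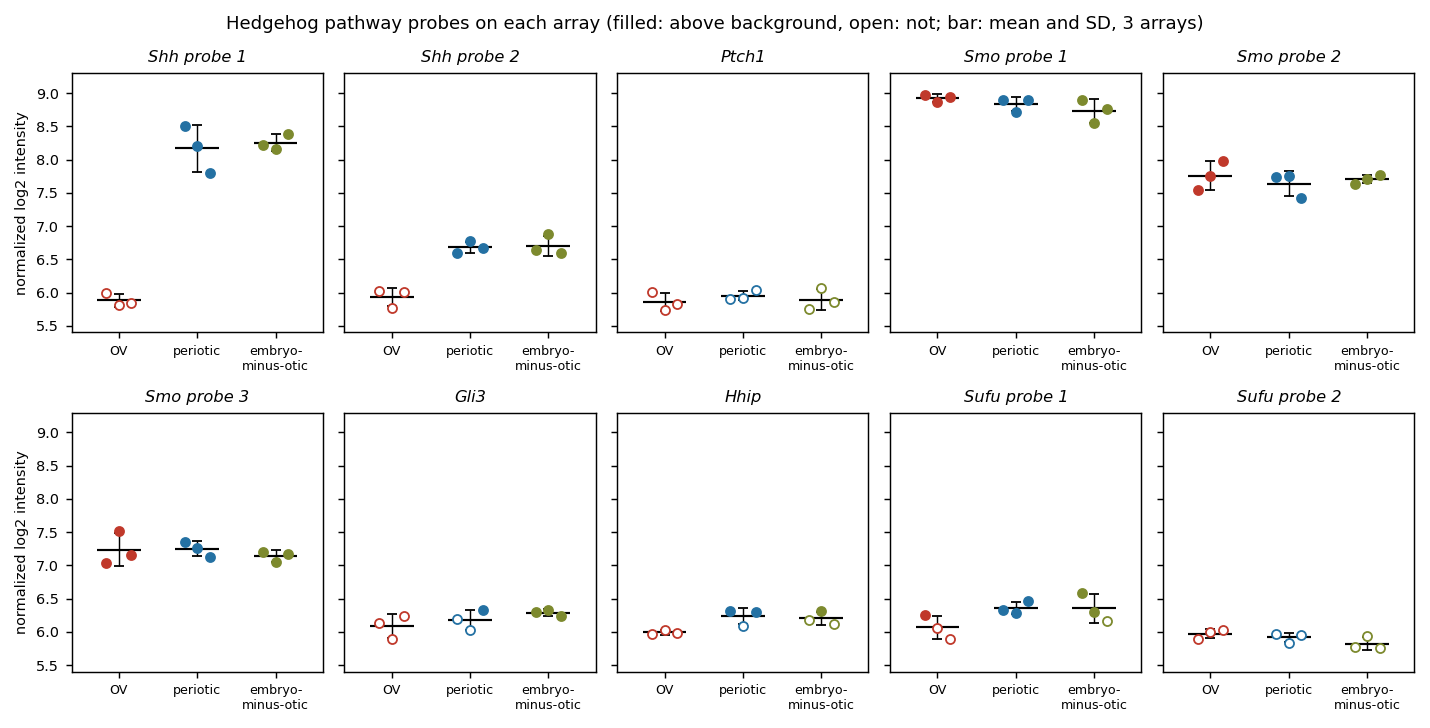
Normalized log2 intensity (y axis) of the 10 core probes on the 9 arrays by tissue, filled where the probe was above background and open where it was not, with bars for the mean and SD of 3 arrays. Both *Shh* probes have all OV arrays open and below the filled non-otic arrays, the *Smo* probes are filled and level, and *Ptch1* and *Sufu* probe 2 are open throughout.

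The core genes also differed in detection. The 3 *Smo* probes were above background on all 9 arrays, 2 of 10 core probes (*Ptch1* and *Sufu* probe 2) on none, and the other 5 on some. Among all probes 45.9% were above background on no array. At the looser detection p of 0.05, *Ptch1* was above background on 1 array, *Hhip* on 6 and *Gli3* on 8.

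**Figure D3:**
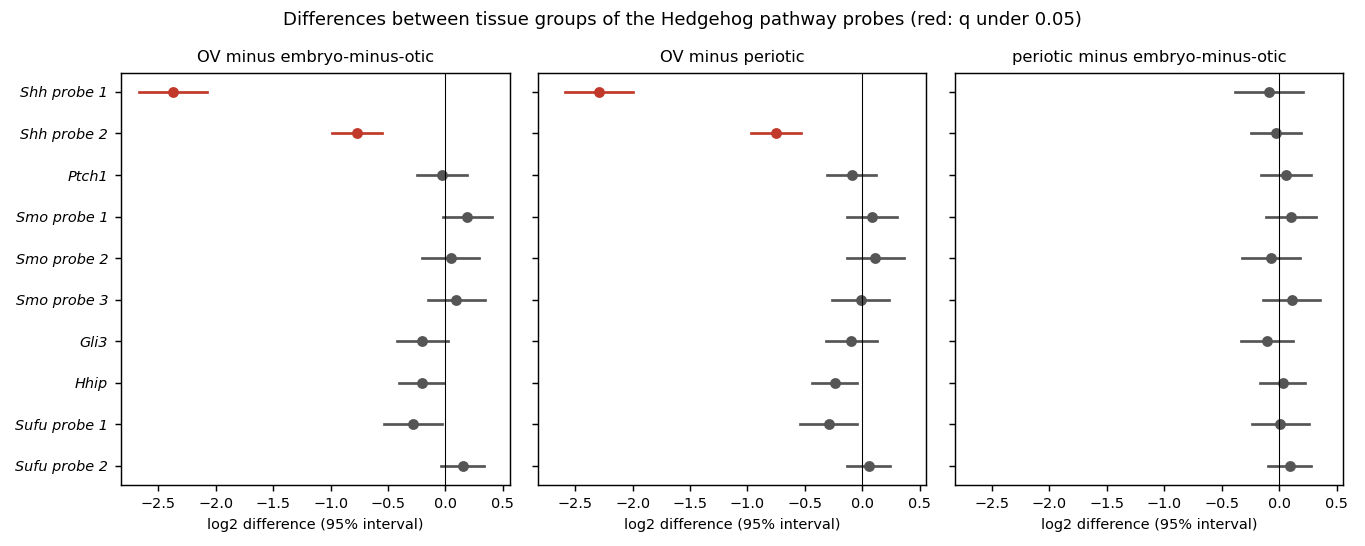
Fitted log2 differences of the 10 core probes with 95% intervals (x axis) in each of the 3 comparisons. The intervals of *Shh* lie far left of 0 in both OV comparisons and cross 0 between periotic tissue and embryo-minus-otic, where no core probe was called.

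The genes whose levels followed *Shh* most closely over the 9 arrays, out of the 11847 probes that every array of some tissue group detected above background, were *Kcnh2* (Pearson's r = 0.991 with *Shh* probe 1), *0610009F02Rik* (r = 0.989) and *Reln* (r = 0.989). *Reln*, which encodes a secreted neuronal guidance protein, had mean levels of 6.36 in OV, 7.90 in periotic tissue and 7.88 in embryo-minus-otic. *Kcnh2*, a potassium channel gene, had 6.81, 7.94 and 8.02 in the same order. For *Smo* probe 1 the closest was *Tmem87a* (r = 0.986). The *Ptch1* probe, above background on no array, still reached r = 0.930 with its closest gene, *Bud31*. It had no called difference between tissues, so that value sets no scale for the r values of *Shh*. Those take in the difference between OV and the non-otic arrays, and 2.65% of all probes were called lower in OV in both comparisons.

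A wider list of 53 pathway genes without the core genes was then read, of which 49 were matched, on 71 probes. Against embryo-minus-otic, 12 of the 71 probes (16.9%) were called lower in OV and 6 (8.45%) higher, beside 5.51% and 5.89% of all probes. Against periotic tissue, 16 (22.5%) were called lower in OV and 3 (4.23%) higher, beside 5.15% and 5.07% of all probes. Between the non-otic tissues, 9 probes (12.7%) were higher in periotic tissue and 5 (7.04%) lower, beside 2.86% and 2.95% of all probes. The median differences of the list were -0.043, -0.030 and 0.056 in these comparisons, and over all probes they were 0.0043, -3.71e-05 and 0.0066.

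Upstream of the transducer few genes were called. The other ligands, *Ihh* and *Dhh*, were called in no comparison, and *Dhh* was above background on 1 array and *Ihh* on none. Their lowest unadjusted p in limma was 0.0212, for *Dhh* between the non-otic tissues (*q* = 0.189). Of 8 probes for ligand processing and release, 1 (12.5%) was called lower in OV in both comparisons, beside 5.51% and 5.15% of all probes. It belongs to *Scube2*, which helps release the ligand from cells, and read 5.74 in OV, 6.81 in periotic tissue and 6.44 in embryo-minus-otic. This probe was above background on no OV array, and was at least 1.52-fold lower in OV than in periotic tissue (limma's *q* = 7.99e-07). The other *Scube2* probe was above background on no array and was called in no comparison. The coreceptors *Boc*, *Cdon* and *Gas1* gave no call, with a lowest unadjusted p of 0.151 in limma, and were above background on no array.

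Of 18 probes for transduction and Gli processing, 1 was called higher in OV than in embryo-minus-otic and 2 lower in OV than in periotic tissue. The first is 5.56% of these probes, near the 5.89% of all probes called higher there, and the second 11.1%, beside 5.15% of all probes. These were *Tulp3*, a ciliary trafficking gene (difference 0.42), and *Arrb2* (-0.40) and *Spop* (-0.39), an arrestin and a ubiquitin ligase adaptor, all named after their values were seen. Of 7 primary cilium probes, 4 (57.1%) were called lower in OV than in periotic tissue, beside 5.15% of all probes. They were the 3 probes of *Ift172* (-0.45, -0.34 and -0.50) and 1 of *Ift52* (-0.38). Both are intraflagellar transport genes and were also named after their values were seen.

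Among target genes of the ventral neural tube, 6 were matched. Of their 10 probes, 5 (50%) were called lower in OV than in embryo-minus-otic, beside 5.51% of all probes. Among them, a *Foxa2* probe and a *Nkx2-9* probe were above background on no array of either tissue. *Foxa2* is also on the floor plate and notochord list. Against periotic tissue 6 (60%), from 4 genes, were called lower in OV, beside 5.15% of all probes. Among them was a *Nkx2-2* probe above background on no array (-0.36, limma's *q* = 0.0452). Calls on such probes compare signal near background. Between the non-otic tissues 4 (40%), from 3 genes, were higher in periotic tissue and 1 (10%) lower, beside 2.86% and 2.95% of all probes. *Nkx6-1*, a homeobox gene of ventral progenitors, stood at 5.88 ± 0.27 in OV, above background on no OV array, at 9.39 ± 0.24 in periotic tissue and at 7.97 ± 0.18 in embryo-minus-otic (SD, n = 3 each). It was at least 9.16-fold lower in OV than in periotic tissue (limma's *q* = 1.59e-10) and at least 3.42-fold lower than in embryo-minus-otic (limma's *q* = 5.85e-08).

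*Nkx2-2*, which marks the progenitors next to the floor plate, read 5.71 in OV on the probe that was above background somewhere, against 7.92 in periotic tissue and 6.77 in embryo-minus-otic. It was at least 3.30-fold lower in OV than in periotic tissue (limma's *q* = 9.79e-11) and 2.23-fold higher in periotic tissue than in embryo-minus-otic (limma's *q* = 3.47e-07). *Nkx2-9*, another ventral homeobox gene, was above background in periotic tissue alone, on both of its probes. *Nkx2-1*, a gene of the ventral forebrain, thyroid and lung, was above background in embryo-minus-otic alone, at 7.55 against 5.97 in OV and 5.93 in periotic tissue. Its other probe was above background on no array and was called in no comparison. The sums of the hindbrain and neural tube markers given above had the same order over the tissues as *Nkx6-1* and *Nkx2-2*. Their part in these differences was not tested.

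The contrast between the non-otic tissues was set side by side for *Shh* and these neural targets. *Nkx6-1* was higher in periotic tissue than in embryo-minus-otic by 1.42 (limma's *q* = 1.12e-05) and *Nkx2-2* by 1.16, while *Shh* probe 1 differed there by -0.087 and did not pass the test. The difference between the genes was not itself tested.

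Target genes of mesoderm and endoderm had 1 probe each. Of the 9 probes, 5 were above background anywhere, and the same number were called lower in OV than in embryo-minus-otic, 2 lower in OV than in periotic tissue and 4 lower in periotic tissue than in embryo-minus-otic. The called shares were 55.6%, 22.2% and 44.4% in that order, beside 5.51%, 5.15% and 2.95% of all probes. *Foxf1*, a forkhead gene of splanchnic mesoderm, was above background only in embryo-minus-otic, at 6.80 against 5.72 in OV and 5.99 in periotic tissue. *Foxf2*, its paralog, was at 5.84 in OV, 6.67 in periotic tissue and 6.80 in embryo-minus-otic. *Osr2* and *Hand2*, a palate and limb gene and a heart and limb gene, were likewise above background in embryo-minus-otic alone. *Foxc2*, a forkhead gene of mesenchyme, stood at 7.50 in OV, 8.34 in periotic tissue and 9.38 in embryo-minus-otic, and was called in all 3 comparisons. Its periotic minus embryo-minus-otic difference of -1.04 was lost under median normalization (limma's *q* = 0.0768). The mesenchyme and gut marker sums given above were highest in embryo-minus-otic, and their part in these differences was not tested.

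Of 13 growth target probes, 5 (38.5%) were called higher and 1 (7.69%) lower in OV than in embryo-minus-otic, beside 5.89% and 5.51% of all probes. Against periotic tissue 3 (23.1%) were called higher and 1 (7.69%) lower in OV, beside 5.07% and 5.15% of all probes. Between the non-otic tissues 4 (30.8%) were called higher in periotic tissue and 0 lower, beside 2.86% and 2.95% of all probes. They were *Bcl2* probes (0.45, 0.40 and 0.34) and a *Ccnd1* probe (0.38), so higher levels than in embryo-minus-otic were not particular to OV. *Ccnd1* is the gene of cyclin D1. Its 3 probes were called higher in OV, by 1.45, 1.12 and 1.10 against embryo-minus-otic and by 1.06, 0.79 and 0.81 against periotic tissue. *Ccnd2*, the gene of cyclin D2, was lower in OV, at 9.78 against 10.70 in periotic tissue and 11.23 in embryo-minus-otic. Its difference of -1.45 against embryo-minus-otic was lost under median normalization (limma's *q* = 0.0514). Its difference of -0.92 against periotic tissue was lost under neqc (limma's *q* = 0.0694), under median normalization (limma's *q* = 0.189), without OV replicate 3 (limma's *q* = 0.0762) and without periotic replicate 1 (limma's *q* = 0.0532). *Bcl2*, a survival gene with 8 probes, was called higher in OV than in embryo-minus-otic on 2 of them, by 0.46 (limma's *q* = 0.00361) and 0.33 (limma's *q* = 0.0442), and on none against periotic tissue, where 1 had an unadjusted p under 0.05 in limma. It was named after its values were seen. *Ccnd1* and *Ccnd2* also answer to other growth signals.

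**Figure D4:**
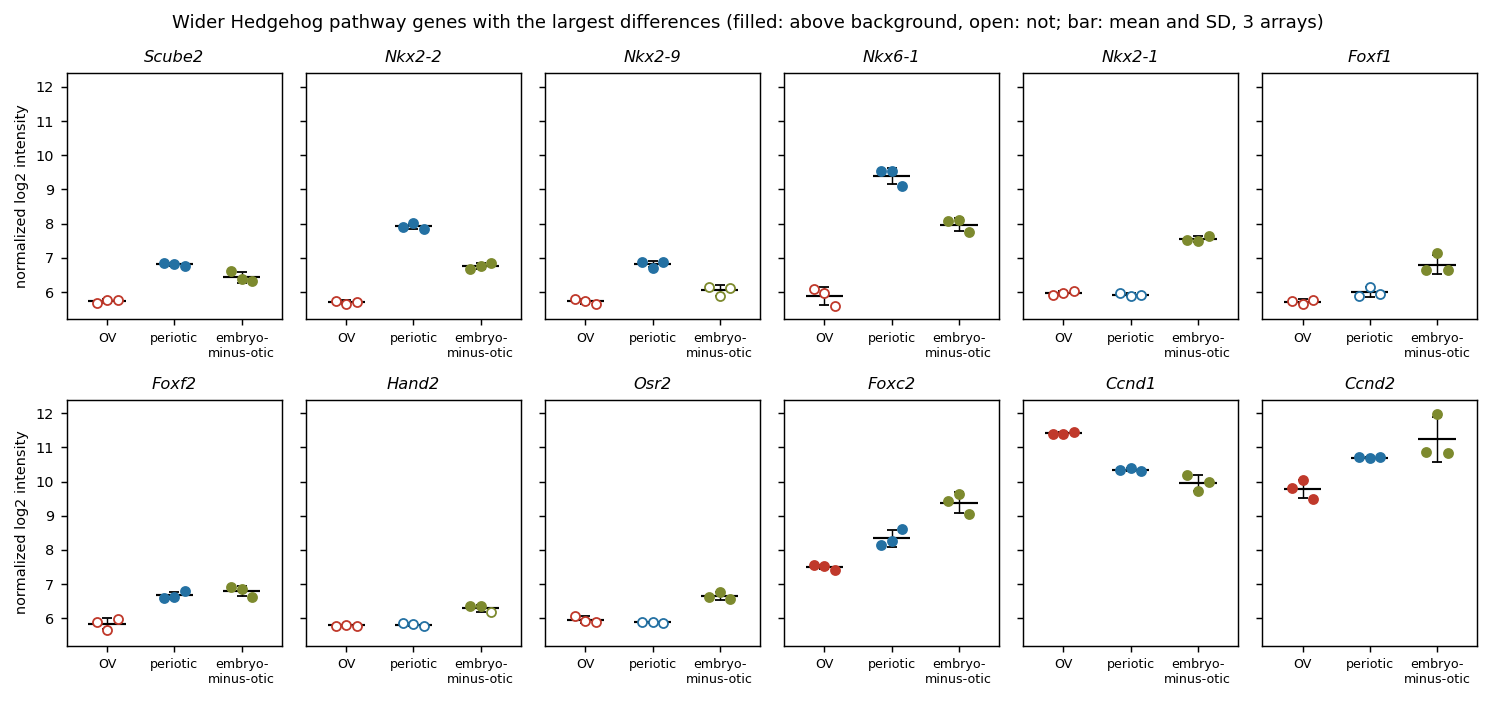
Normalized log2 intensity (y axis) on the 9 arrays by tissue for the 12 genes of the wider list that were among the 8 with the largest called differences in at least 1 of the 3 comparisons, filled where above background and open where not, with bars for the mean and SD of 3 arrays. *Nkx6-1*, *Nkx2-2* and *Nkx2-9* peak in periotic tissue, *Nkx2-1*, *Foxf1*, *Osr2* and *Hand2* are filled in embryo-minus-otic alone, and *Ccnd1* is highest in OV.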

How the data were processed

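The authors hybridised RNA of 9 tissue pools to Illumina beadchips, 1 colour, and deposited for each array a signal intensity per probe, not normalized, and a detection p-value per probe, which compares the probe with the negative controls in 798 steps. Arrays were assigned to tissues by their labels. Intensities were floored at 1, a floor that no value reached, log2 transformed and quantile normalized over all arrays in R 4.3.3 with limma 3.58.1. A model with 3 group means was fitted with lmFit and eBayes, and p-values were adjusted over all 25697 probes. Different probes of a gene were kept apart. The core genes and the wider lists were chosen with earlier results of these data known. Genes of the wider list were named by the size of their called difference, up to 8 in each comparison. Outside this rule, *Tulp3*, *Arrb2*, *Spop*, *Ift172*, *Ift52*, *Bcl2* and *Foxa2* were named after their values were seen. *Ihh*, *Dhh*, *Boc*, *Cdon* and *Gas1* were named without a call. Symbols were matched as in the array annotation, 5 genes through an older symbol; the file names no genome build, so no position is given. The number of arrays and not read depth limits the precision. The alternatives tried were no normalization, median normalization, neqc (offset of 16), a filter on dim probes, fits of 2 groups, a replicate block, a trended prior, array weights and leaving out each array. The procedure was tested on simulated data. Replicate numbers were not taken as pairing the arrays in the main fit, because the labels do not state a pairing.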

Additional observations from a re-analysis of the deposited data

How the results depend on the processing

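Of the 30 core differences, the 4 called (both *Shh* probes in both OV comparisons) were called under all 17 alternatives, and the 26 not called were called under none. Of the latter 12 changed sign somewhere, with no call on either side. Between periotic tissue and embryo-minus-otic, median normalization gave 0.13 and 0.048 for *Shh* probes 1 and 2 and 0.12 for *Smo* probe 2, and no normalization gave 0.0022 for *Shh* probe 1, -0.094 for *Ptch1*, -0.092 for *Hhip*, and -0.065 and -0.053 for *Sufu* probes 1 and 2. Leaving out 1 array gave, against embryo-minus-otic, -0.11 to 0.054 for *Ptch1*, -0.064 to 0.15 for *Smo* probe 2 and -0.045 to 0.19 for probe 3. Against periotic tissue it gave -0.15 to 0.083 for *Smo* probe 3 and -0.17 to 0.00088 for *Gli3*. Between the non-otic tissues it gave -0.25 to 0.098 and -0.080 to 0.062 for *Shh* probes 1 and 2, -0.0086 to 0.10 for *Hhip*, -0.13 to 0.038 for *Smo* probe 2, -0.083 to 0.13 for *Sufu* probe 1 and -0.0052 to 0.15 for *Ptch1*. At a detection p of 0.05 *Ptch1* was above background on 1 array, *Gli3* on 8 and *Hhip* on 6. *Ptch1*, *Hhip* and *Sufu* probe 2 gave no value under the filter on dim probes.

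Counts over all probes fell under median normalization to 670 lower for OV minus embryo-minus-otic, 814 higher and 870 lower for OV minus periotic tissue, and 315 lower for periotic minus embryo-minus-otic. With no normalization they were 588 and 795, 620 and 761, and 325 and 371, higher and lower in the same order, and in the wider list 3 higher, 9 lower and 4 higher. Leaving out 1 array, all probes gave 1111 to 1517 higher and 1075 to 1447 lower, 1020 to 1387 and 1041 to 1407, and 482 to 750 and 522 to 755, the 482 without periotic replicate 2. The wider list gave 5 to 9 and 10 to 13, 3 to 4 and 11 to 17, and 5 to 9 higher and 5 lower, the 5 higher without any of the periotic replicates or embryo-minus-otic replicate 2. The causes were not tested.

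Same-numbered arrays of different groups had correlations of their deviations between 0.0080 and 0.18, over 0.1 in 5 of 9 pairs. For 7 of 9 arrays, the 2 best correlates in the other groups both carried the array's own number. The arrays may thus be matched by number, but the labels do not state it, so the main fit used no pairs. With the replicate block, 1659 probes were higher and 1562 lower, 1384 and 1406, and 829 and 840, the core counts did not change, and the wider list had 6 and 13, 3 and 17, and 11 and 5. Signal close to background limits *Ptch1*, *Hhip*, *Gli3* and *Sufu*.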
